A study of Canis lupus familiaris with 28 samples.

Results

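The antigen processing genes of the dog MHC (the dog leukocyte antigen region, DLA) were followed across canine histiocytic sarcoma (HS), a cancer of macrophage and dendritic cell origin. 10 genes were chosen by symbol. They were the class II chain *DLA-DRA*, the class II loading genes *DLA-DMA*, *DLA-DMB*, *DLA-DOA* and *DLA-DOB*, the peptide transporter genes *TAP1* and *TAP2*, the tapasin gene *TAPBP*, and the immunoproteasome genes *PSMB8* and *PSMB9*. The study's gene lists paired 8 of them with an Ensembl identifier, out of 32704 identifiers counted and 1126 that carried a name. *DLA-DMB* and *PSMB9* were not paired and are not analysed here. The 8 identifiers were ENSCAFG00000000803 (*DLA-DRA*), ENSCAFG00000000848 (*DLA-DMA*), ENSCAFG00000000896 (*DLA-DOA*), ENSCAFG00000000819 (*DLA-DOB*) and those of *TAP1*, *TAP2*, *TAPBP* and *PSMB8*.

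RNA-seq counts came from tumors of 18 Bernese mountain dogs (BMD), 15 labelled HS and 3 labelled as the hemophagocytic form (HHS). Tumors were taken from the lung (6), liver (4), thorax (3), spleen (2), limb (2) and a lymph node (1). Controls from unaffected dogs were blood of 3 BMDs and the lung, spleen and liver of German Shepherds (GSD), 1 library each. Cultured cells were the HS lines BD and OD (from BMDs), PJ (from a Rottweiler), and DC3F9, a strain of dendritic cells that the study grew from the blood monocytes of a mongrel. DC3F9 was unstimulated by its label, but by the study's methods its monocytes had been cultured with the cytokines GM-CSF and IL-4. The methods name no cytokine for the lines, and the labels name no treatment for any other sample. Each culture is 1 library, so each line or strain stands for 1 dog. By the study's histopathology the tumor pieces were mostly tumor tissue, and no cells were sorted.

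Class I molecules show peptides from the cell's own proteins to cytotoxic T cells. The immunoproteasome, of which PSMB8 is a catalytic subunit, cuts the proteins. The transporter made of TAP1 and TAP2 carries the peptides into the endoplasmic reticulum, and tapasin (TAPBP) bridges the transporter and the class I molecule. Class II molecules, such as the DR heterodimer with its DRA chain, show peptides from ingested material and are typical of dendritic cells, macrophages and B cells. DM helps class II molecules to exchange their placeholder for a peptide, and DO, a pair of DOA and DOB chains that is best known from B cells, holds DM back. In the RefSeq gene table of the UU_Cfam_GSD_1.0 assembly all 10 genes lie on chromosome 12. *DLA-DOB*, *TAP2*, *PSMB8*, *TAP1*, *PSMB9*, *DLA-DMB* and *DLA-DMA* follow each other there with 0 protein-coding genes between them, 1 such gene separates *DLA-DMA* from *DLA-DOA*, 4 lie between *DLA-DRA* and *DLA-DOB*, and 11 between *DLA-DOA* and *TAPBP*.

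Levels are in CPM, a gene's share of all counts on genes in a library, scaled to the same total for each library. The total counts on genes were 99701394 to 171815073 in tumors, 133524755 to 180801439 in controls and 82007857 to 131518875 in cultures. By the column names, the 3 blood libraries came from a different flow cell than all other tissue libraries, so flow cell, breed and tissue cannot be told apart among the controls. The liver control had a TMM scaling factor of 0.342, far from the 0.777 to 1.30 of the tumors and remaining controls and was left out of the main test. Marker sums bore out the labels of the liver and lung controls but did not separate the tumor sites. 8 hepatocyte genes summed to 7535 CPM in the liver control, 2.13 to 124 in liver tumors and 4.54 to 142 in thorax tumors. 3 lung epithelium genes summed to 2038 CPM in the lung control, 2.92 to 58.3 in lung tumors and 3.17 to 10.9 in liver tumors. The cultures were counted in a separate table, the labels and the methods differ on their library kit, and no test was run between cultures and tumors. Bulk libraries cannot tell fewer cells of a type from less RNA per cell. CPM does not correct for gene length, so levels are compared between libraries and not between genes. The DLA genes are polymorphic and resemble each other, and reads may have been shared between near-identical copies or lost where a dog's allele differs from the reference.

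*DLA-DRA*, which encodes the alpha chain of DR, varied widely between tumors. Its level ran from 251 CPM in the lung HHS tumor HS53 through a median of 3917 to 21446 in the limb tumor HS39, an 85.3-fold range over 18 tumors. In HS39 it took 2.14% of all counts, the largest share of any identifier in that library. The blood controls had 3870.2, 4642 and 5428 CPM, the lung control 1623 and the spleen control 6772, so 4 tumors lay above and 3 below all 5 controls. The liver control had 260.1 CPM. Among the cultures, DC3F9 had 1580.5 CPM, BD 396, OD 33.0 and PJ 5.45. The tumors thus enclosed the controls, and each of the 3 lines lay below DC3F9.

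*DLA-DMA*, one chain of the loading helper DM, had 46.7 CPM in HS53, a median of 419 and 1292 in HS39. Its levels were 181, 195 and 242 CPM in blood, 106 in the lung control, 387 in the spleen control and 13.6 in the liver control. 10 of 18 tumors lay above all 5 controls and 2 below. DC3F9 and BD had almost the same level, 65.5 and 65.0 CPM, whereas OD had 3.98 and PJ 2.73.

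The 2 DO genes had their highest levels in controls. *DLA-DOA* had 0.331 CPM in the spleen tumor HS29, a median of 2.21 and 17.6 in the liver tumor HS50. The controls had 12.8, 22.1 and 69.2 CPM in blood, 8.27 in lung and 83.3 in spleen, and 15 of 18 tumors lay below all 5. The exceptions were HS50, the spleen tumor HS51 (15.3 CPM) and the liver HHS tumor HS46 (12.3 CPM). *DLA-DOB* had 0.371 CPM in HS29, a median of 5.87 and 36.2 in HS46, against 51.6, 43.6 and 154 in blood, 5.96 in the lung control and 106 in the spleen control. All 18 tumors lay below each blood control and the spleen control, but 9 lay above the lung control. HS46, HS50 and HS51 again held the 3 highest tumor values. The liver control had 0.525 CPM of *DLA-DOA* and 1.34 of *DLA-DOB*.

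In cultured cells both DO genes were low, and 2 values lay under the 3 counts taken as the limit of detection (0.0366 CPM in DC3F9, the smallest library). *DLA-DOA* had 1 count in DC3F9, 27 in BD (0.229 CPM), 107 in OD (0.814 CPM) and 56 in PJ (0.575 CPM). The CPM ratio of BD to DC3F9 was 18.8, with an exact 95% interval of 3.09 to 768 that covers counting error only. *DLA-DOB* had 25 counts in DC3F9, 34 in BD, 17 in OD and 2 in PJ. No line had 1 CPM of either gene.

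The transporter genes varied less. *TAP1* ran from 79.7 CPM in HS53 through a median of 305 to 778 in HS39, a 9.77-fold range. The controls had 338, 355 and 371 CPM in blood, 113 in lung, 245 in spleen and 38.9 in liver, so 17 of 18 tumors exceeded the lung control and 8 exceeded every blood control. *TAP2* ran from 34.8 CPM in HS29 through 121 to 247 in HS39. Its controls had 150.4, 160.0 and 201 CPM in blood, 86.1 in lung, 105 in spleen and 23.2 in liver. For *TAP2* only 2 tumors lay above all 5 controls and 5 lay below.

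The cultures kept the transporter genes within a narrow band. *TAP1* had 89.5 CPM in DC3F9, 97.7 in BD, 101 in OD and 61.3 in PJ. *TAP2* had 59.5, 85.1, 71.5 and 38.5 CPM in the same order. In OD and PJ, where *DLA-DRA* was at 2.09% and 0.345% of its DC3F9 level, *TAP1* was at 113% and 68.5% of it. These percentages compare raw CPM of single libraries. With TMM scaling (factors of 0.794 for DC3F9 and 1.06 to 1.10 for the lines) the fitted log2FC of *TAP1* over the 3 lines was -0.51, so the side on which BD and OD lie depended on the scaling.

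*TAPBP* was the steadiest of the 8, with 235 CPM in the lung tumor HS47, a median of 508 and 878 in the limb tumor HS34, a 3.73-fold range. It had 347, 497 and 686 CPM in blood, 250.4 in the lung control, 254 in the spleen control and 56.3 in the liver control. 17 of 18 tumors exceeded the lung control and 17 the spleen control, but only 5 exceeded all blood controls. The cultures had 415 CPM in DC3F9, 336 in BD, 469 in OD and 239.7 in PJ.

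*PSMB8* had 22.3 CPM in HS53, a median of 301 and 659.7 in the lymph node HHS tumor HS41. The controls had 186, 201 and 258 CPM in blood, 86.8 in lung, 230.3 in spleen and 19.9 in liver, and 11 of 18 tumors lay above all 5. DC3F9 had 52.5 CPM and BD 29.4, while OD had 1.13 and PJ 1.64. The immunoproteasome subunit, like *DLA-DRA* and *DLA-DMA*, was at least 10 times lower in OD and in PJ than in BD, whereas *DLA-DOA* was higher in OD and PJ than in BD.

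**Figure D1:**
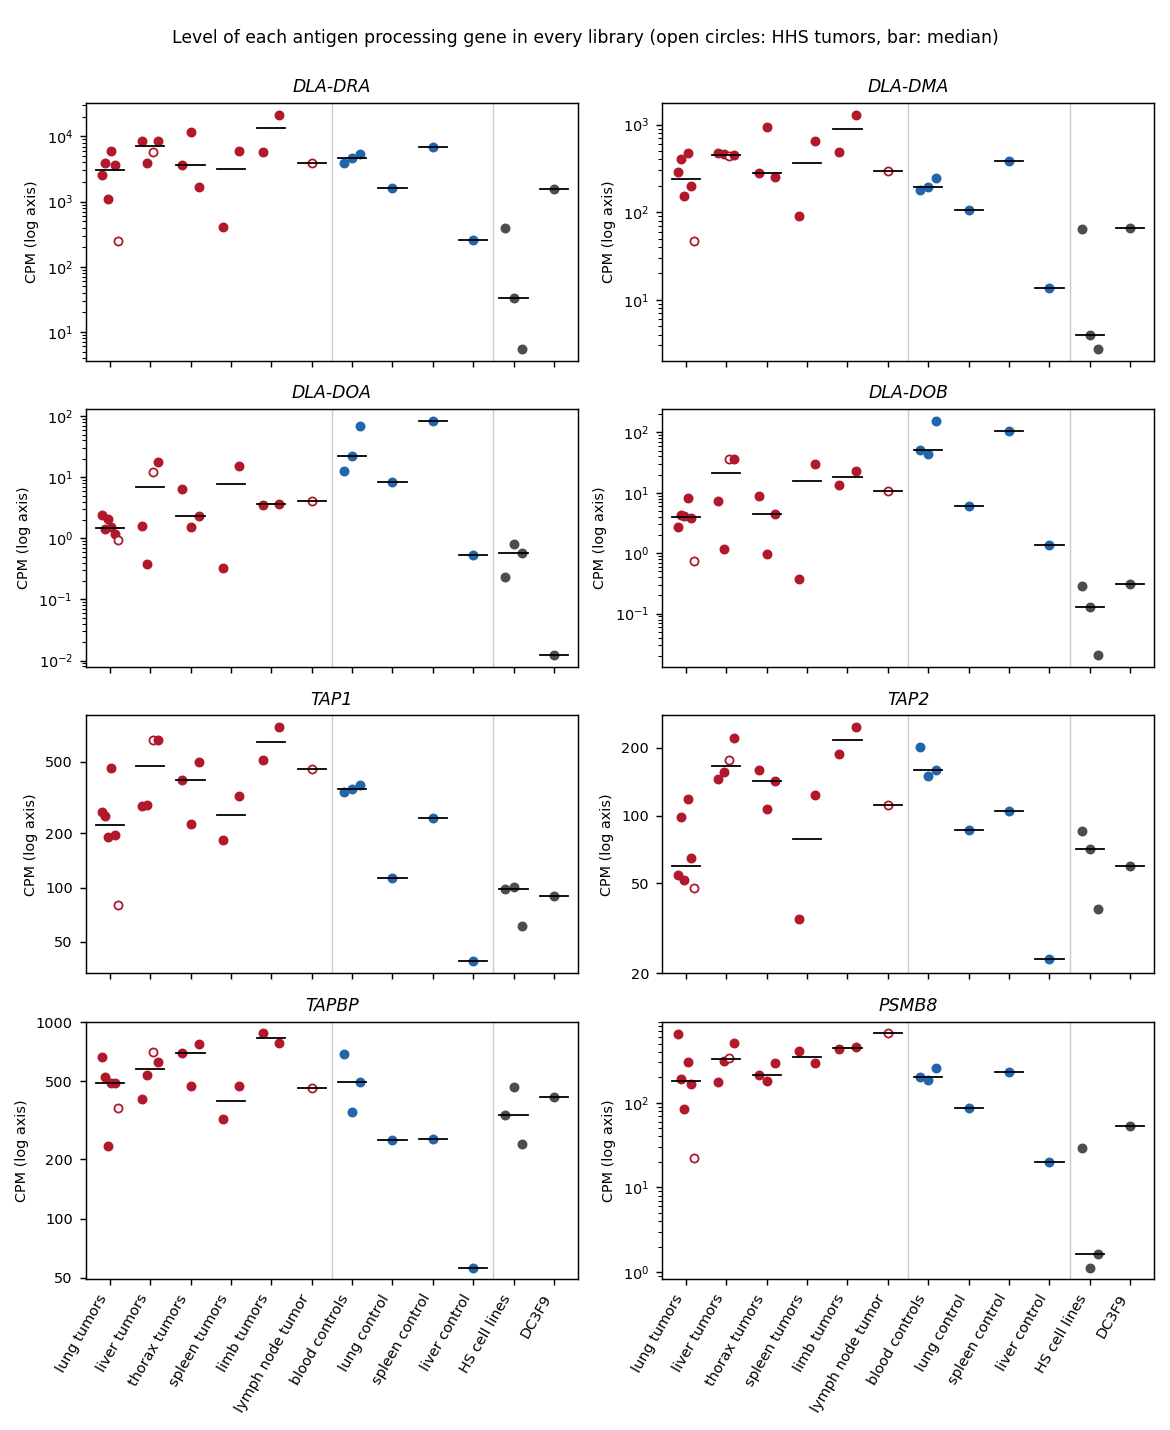
CPM of each gene (log axis) in all 28 libraries, by tumor site, control tissue and culture, with 1 point per library, open circles for the 3 HHS tumors and a bar at the median. *DLA-DRA*, *DLA-DMA* and *PSMB8* drop by more than 10-fold in OD and PJ against DC3F9. The highest value of each DO gene is in a blood or spleen control.

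The same few tumors stood at the ends for most genes. HS53 was among the 3 lowest of 18 tumors for 8 of 8 genes, HS29 for 7 and HS47 for 6. HS29 broke the pattern with *PSMB8*, where its 406 CPM was above the tumor median. HS50 was among the 3 highest for 6 genes and HS39 for 5. The summed CPM of 6 myeloid marker genes (*LYZ*, *CSF2RB*, *NCF4*, *NFAM1*, *DCSTAMP* and *CYTH4*) was 5383 in HS53, above the tumor median of 1719, and the relation of the marker sum to the low DLA levels was not tested.

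Whether tumors differed from normal tissue was asked with edgeR's quasi-likelihood test over 19430 genes, 18 tumors against 5 controls, with Benjamini-Hochberg adjustment. The thresholds of an adjusted p under 0.0005 and an absolute log2FC above 1.5 were taken from the study, whose methods name another adjustment (Benjamini-Yekutieli). At this cutoff 0 of 8 genes were called, while 2.77% of all genes tested were. *DLA-DOA* had a log2FC of -3.06 (SE 0.64, adjusted p = 0.00134) and *DLA-DOB* one of -2.67 (SE 0.70, adjusted p = 0.00701). Both missed that cutoff and passed an adjusted p of 0.05 with the same fold limit, as 17.8% of all genes did. DESeq2, which called 9.18% of genes at the stricter cutoff, called *DLA-DOA* (log2FC -3.13, adjusted p = 8.17e-05). These 2 were also the members with an unadjusted p under 0.05, which 39.7% of all genes had.

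The remaining 6 genes had log2FC nearer to 0. *DLA-DMA* had 1.09 (SE 0.53, edgeR adjusted p = 0.128), *PSMB8* 0.89 (SE 0.51, adjusted p = 0.200) and *TAPBP* 0.54 (SE 0.31, adjusted p = 0.194). *TAP1* had 0.48, *DLA-DRA* 0.42 and *TAP2* -0.09, with adjusted p of 0.386, 0.663 and 0.871 by edgeR. The median log2FC of the 8 genes was 0.45, beside -0.01 over all genes tested. None of these 6 passed at an adjusted p of 0.05. Without HS53, 0 of 8 genes were called and 4 had an unadjusted p under 0.05, as 40.2% of all genes in that fit had, with *DLA-DMA* at 1.16 (edgeR adjusted p = 0.0657) and *PSMB8* at 0.97 (adjusted p = 0.0904).

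The choice of control changed several of these values. Against the 3 blood controls alone *TAPBP* had a log2FC of 0.17 (SE 0.34) and *TAP2* one of -0.42 (SE 0.42). Against the lung and spleen controls they had 1.38 (SE 0.44, edgeR adjusted p = 0.0537) and 0.61 (SE 0.55). *TAP1* moved from 0.11 to 1.28 and *PSMB8* from 0.67 to 1.26 between the same control sets. The median log2FC of all genes was 0.44 against blood and 0.08 against lung and spleen. *DLA-DOA* stayed at -2.94 and -3.26 and *DLA-DOB* at -2.90 and -2.24, and *DLA-DOB* had an adjusted p of 0.170 against lung and spleen. The difference between the control sets was not tested.

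**Figure D2:**
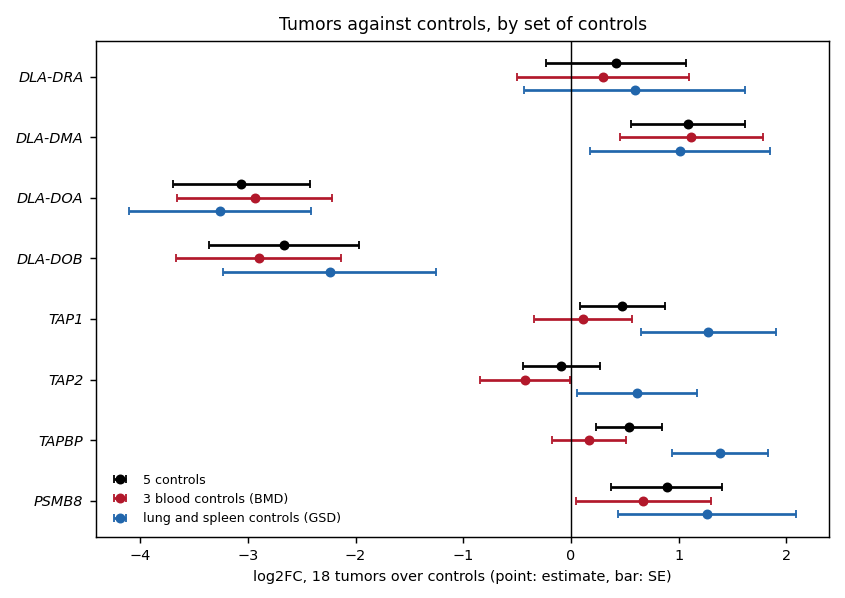
log2FC of 18 tumors over controls for each gene (points, with bars of 1 SE), against all 5 controls, the 3 blood controls and the lung and spleen controls. *DLA-DOA* and *DLA-DOB* lie between -3.26 and -2.24 with every set, while *TAP1*, *TAP2* and *TAPBP* shift by 1 or more between blood and the solid tissues.

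T and NK cell markers were also lower in tumors than in the 5 controls, with a weaker difference from the solid tissues. 5 of 5 T and NK cell marker genes had negative log2FC with an unadjusted p under 0.05, and 2 were called, *TCF7* at -5.10 among them, with a median of -3.30. Against the lung and spleen controls alone 0 were called and 2 of 5 had an unadjusted p under 0.05, as 23.7% of all genes had. Their log2FC there ran from -3.68 (*TCF7*) to -0.40 (*GRAP2*), with a median of -1.09. In the same fit *DLA-DOA* had -3.26 (edgeR adjusted p = 0.0167) and *DLA-DOB* -2.24 (adjusted p = 0.170). Neither was called, in a fit that called 1.03% of all genes. The summed level of the 5 markers was 14.6 to 228 CPM in tumors, 35.2 in the lung control, 246 in the spleen control and 617 to 1096 in blood. HS50, the tumor with the most *DLA-DOA*, had the highest sum of the tumors. *TNFRSF13C*, the only B cell marker with a name, had a log2FC of -0.66 against the 5 controls, which did not pass the test, and of 0.05 against lung and spleen. It was 0.293 to 6.31 CPM in tumors, highest in HS51, and 0.352 to 13.2 in the 5 controls. Other marker lists also had negative median log2FC against the 5 controls. The medians were -1.02 for myeloid, -2.49 for endothelium, -3.26 for lung epithelium and -4.34 for erythroid and platelet genes. The fibroblast (0.09) and hepatocyte (1.12) lists had positive medians. Lower values were thus not particular to the T and NK markers. The part of RNA from lymphocytes or other cells in the DO values was not tested.

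Ratios within a library do not depend on depth or scaling. Per 1000 *DLA-DRA* counts, the tumors had 0.0989 to 3.72 *DLA-DOA* counts (median 0.875) and the 5 controls 3.31 to 12.8 (median 5.10). HS53, with few *DLA-DRA* counts, was the tumor at 3.72. *DLA-DOB* had 0.0823 to 6.34 counts per 1000 in tumors (median 1.85) and 3.67 to 28.3 in controls (median 13.3), with the lung control at the low end. *DLA-DMA* went the other way, with 52.9 to 220.1 counts per 1000 in tumors (median 82.5) and 42.1 to 65.4 in controls (median 46.7). The liver control, which is not among the 5, had 2.02 *DLA-DOA* and 5.17 *DLA-DOB* counts per 1000, both inside the tumor ranges. Its *DLA-DMA* ratio was 52.4. These ratios were chosen after the levels had been seen and carry no test.

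**Figure D3:**
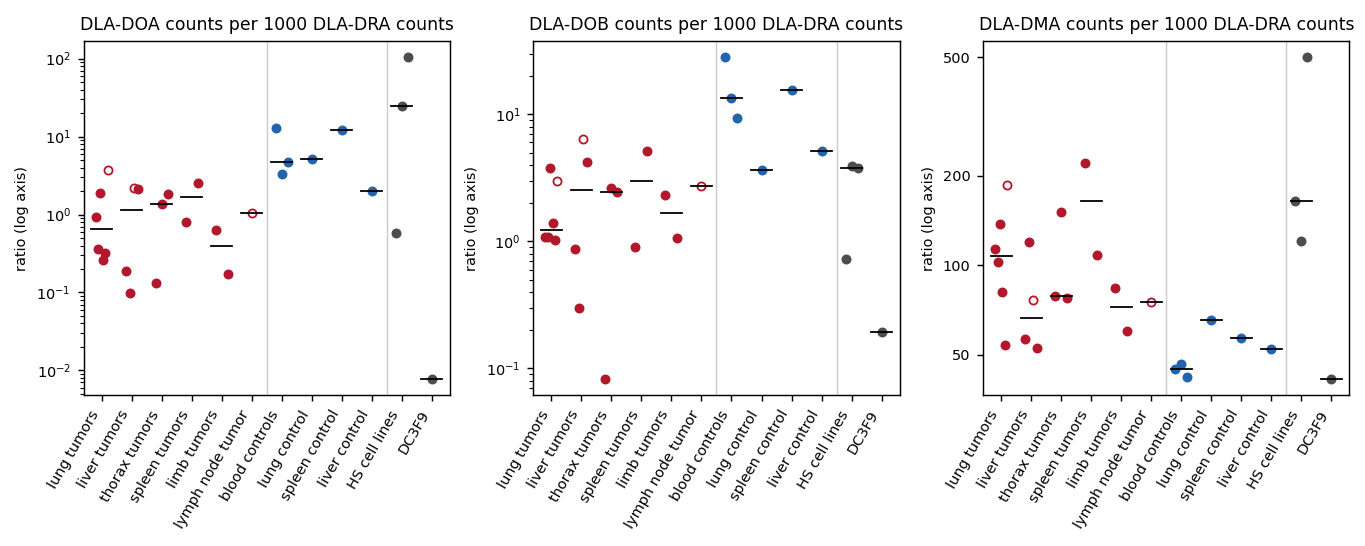
Counts of *DLA-DOA*, *DLA-DOB* and *DLA-DMA* per 1000 *DLA-DRA* counts (log axis) in each library, with a bar at the median and open circles for HHS tumors. Tumor medians are 0.875, 1.85 and 82.5, against 5.10, 13.3 and 46.7 in the 5 controls.

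The class I heavy chains and the other class II chains were read beside these genes. 0 of 3 class I heavy chain genes were called in tumors against controls, with log2FC of -0.21 (*DLA88*), 0.52 (*DLA-64*) and -0.11 (the gene paired with human *HLA-C*). *DLA88* ran from 15.1 CPM in HS53 to 3207 in HS39, a spread that reads from a dog's own alleles could set and that was not tested further. 0 of 4 other class II chain genes were called, and all 4 had positive values: 1.37 for the gene paired with *HLA-DRB1*, 1.39 for *HLA-DQB2*, 1.04 for *HLA-DPB1* and 0.43 for *DLA-DQA1*. The *HLA-DPB1* counterpart never exceeded 0.232 CPM in any library.

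Genes of the assembly and cutting steps and interferon genes gave few calls. Of 7 folding, proteasome and cathepsin identifiers 5 were tested and 0 called, with log2FC from -0.47 (*PSMD5*, a proteasome assembly factor) to 2.03 (*POMP*, the proteasome maturation protein). Of 8 interferon genes 0 were called. *ETV7*, an interferon-induced transcription factor gene, had 1.61 (edgeR adjusted p = 0.0151), *IFNG* 1.56, *IRGM* 1.03, *IFGGC1* 1.29, *IFNGR1* 0.25, *LY6E* -0.25, *IRF1* -0.55 and *STAT2* -0.90. Of 20 other genes of the region, 1 was called higher (*KIFC1*, a kinesin gene, 2.85) and 1 lower (*COL11A2*, a collagen gene, -2.04), and their median of 0.12 lay below the 0.45 of the 8 antigen processing genes.

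Between tumor sites, all 8 genes had lower fitted levels in the 6 lung than in the 4 liver tumors, but none passed the test. edgeR called 0% of 22644 genes here and gave an unadjusted p under 0.05 to 6.28% of them and to 4 of the 8. *TAP2* had 47.7 to 119 CPM in lung tumors (median 59.6) and 146, 156, 177 and 220.4 in liver tumors. The groups did not overlap, as in 0.203% of genes in this direction. Its log2FC was -1.32 (SE 0.32, unadjusted p = 0.000671, edgeR adjusted p = 0.787), and the DESeq2 adjusted p was 0.0160 with a log2FC of -1.30, under the 1.5 cutoff in size. DESeq2 called 0.79% of genes and 0 of the 8.

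*DLA-DOB* had 0.749 to 8.23 CPM in lung tumors (median 3.98) and 1.16, 7.31, 35.7 and 36.2 in liver tumors, with a log2FC of -2.33 (SE 0.91). *DLA-DOA* had 0.934 to 2.38 CPM (median 1.47) against 0.386, 1.60, 12.3 and 17.6, with a log2FC of -2.27 (SE 0.87). In both, HS46 and HS50 set the liver values and HS36 lay within or below the lung tumors. *TAP1* had 79.7 to 460.0 CPM (median 224) and 285, 288, 663 and 664, with a log2FC of -0.99 (SE 0.43). These 3 genes shared the edgeR adjusted p of 0.787.

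The other class II and class I genes of the 8 overlapped between the sites too. *DLA-DRA* had a lung median of 3103 CPM and liver values of 3908, 5702, 8390.3 and 8395 (log2FC -1.18, SE 0.78), and *DLA-DMA* had a log2FC of -0.83 (SE 0.61). *PSMB8* and *TAPBP* had -0.38 (SE 0.67) and -0.30 (SE 0.35). The median over the 8 genes was -1.08, beside 0.06 over all genes. Leaving out HS46, or HS50, left 1 of 8 genes with an unadjusted p under 0.05 (5.57% and 4.49% of all genes), and so did the fit on HS tumors alone (4.91%). The T and NK marker sum was 14.6 to 51.0 CPM in lung tumors and 15.4 to 228 in liver tumors, and its part was not tested. 3 of 8 interferon genes (*ETV7*, *IFGGC1* and *IRGM*) also had negative values with an unadjusted p under 0.05, and *IFNG* had -2.21 (edgeR adjusted p = 0.818).

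Tumors set beside the control of their own organ, 1 library each, gave a description without a test. The median lung tumor had 1.91 times the lung control's *DLA-DRA*, 2.28 times its *DLA-DMA*, 2.08 times its *PSMB8*, 1.99 times its *TAP1* and 1.96 times its *TAPBP*. It had 0.692 times its *TAP2*, 0.667 times its *DLA-DOB* and 0.178 times its *DLA-DOA*. The 2 spleen tumors differed too much for a median to describe them, since HS29 had 408 and HS51 5953 CPM of *DLA-DRA*, both below the spleen control. Both had less *DLA-DOA* and *DLA-DOB* than that control as well. Against the liver control, which had been left out of the main test, the order was the opposite for the DO genes. The median liver tumor had 13.2 times its *DLA-DOA* and 16.0 times its *DLA-DOB*. For *DLA-DRA*, *DLA-DMA* and *PSMB8* the ratios were 27.1, 33.4 and 16.4, and for *TAP1*, *TAPBP* and *TAP2* they were 12.2, 10.3 and 7.18. These are ratios of raw CPM, and the liver control's TMM factor of 0.342 means that scaling makes them smaller. With TMM scaling the liver control had 760 CPM of *DLA-DRA* and 67.7 of *TAP2*, against 260.1 and 23.2 unscaled.

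None of the 8 genes passed the test between HHS and HS tumors. edgeR called 0% of 19853 genes (unadjusted p under 0.05 in 4.01%, and 0.126% called by DESeq2), and 0 of the 8 had an unadjusted p under 0.05. The 3 HHS tumors HS41, HS46 and HS53 had 3906, 5702 and 251 CPM of *DLA-DRA* and 659.7, 341 and 22.3 CPM of *PSMB8*, so HS53 stood apart from the other two. The log2FC was -0.84 for *DLA-DRA* and for *DLA-DMA* (SE 0.89 and 0.67), and 0.81 for *DLA-DOB* (SE 0.93). With HS53 left out the median over the 8 genes changed from -0.05 to 0.41, and with HS46 left out to -0.65.

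In the HS lines against DC3F9, 7 of the 8 genes had negative values and *DLA-DOA* a positive one. The log2FC was -3.93 for *DLA-DRA* (SE 1.92), -2.77 for *PSMB8* (SE 1.76) and -1.94 for *DLA-DMA* (SE 1.74), with edgeR adjusted p of 0.411, 0.504 and 0.615. *TAP1*, *TAP2* and *TAPBP* had -0.51, -0.34 and -0.72 (SE 0.45, 0.55 and 0.48), and *DLA-DOB* had -1.52 (edgeR adjusted p = 0.647). *DLA-DOA* had the value farthest from 0, 4.91 (SE 1.69, edgeR adjusted p = 0.289), on 1 count in DC3F9, and was the only one of the 8 with an unadjusted p under 0.05. edgeR called 0% of 18121 genes and gave an unadjusted p under 0.05 to 15.4%, while DESeq2 called 9.91% and 0 of the 8. In raw CPM *DLA-DRA*, *DLA-DMA*, *DLA-DOB* and *PSMB8* were lower in each line than in DC3F9, as 19% of all genes were. *DLA-DOA* was higher in each line, as 46.3% were. BD was only just lower for *DLA-DOB* (94.5% of DC3F9) and *DLA-DMA* (99.3%). The median log2FC of the 8 genes was -1.12, beside 0.23 over all genes. With a single DC3F9 library its spread is taken from the lines. The cytokines in its culture cannot be told apart from its other differences from the lines.

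BD set the size of these differences. It kept 25.1% of the *DLA-DRA* and 99.3% of the *DLA-DMA* level of DC3F9, which had 1.79 times the *PSMB8* level of BD. Without BD the log2FC was -6.81 for *DLA-DRA*, -4.75 for *DLA-DMA* and -5.71 for *PSMB8*, and 4 of 8 genes had an unadjusted p under 0.05, as 17.9% of all genes in that fit had. With all 3 lines, all 3 class I heavy chain genes had unadjusted p under 0.05 and log2FC of -2.84 to -3.29, with *DLA-64* at 1041 CPM in DC3F9 and 207, 307 and 87.2 in BD, OD and PJ. By edgeR their adjusted p were 0.113 to 0.220, and by DESeq2 0.000564 to 0.0442. In the interferon list *IRF1* had -1.55 and *STAT2* -1.38 (unadjusted p under 0.05 each). *IFNG* had 45 counts in DC3F9, 0 in BD, 0 in OD and 1 in PJ.

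**Figure D4:**
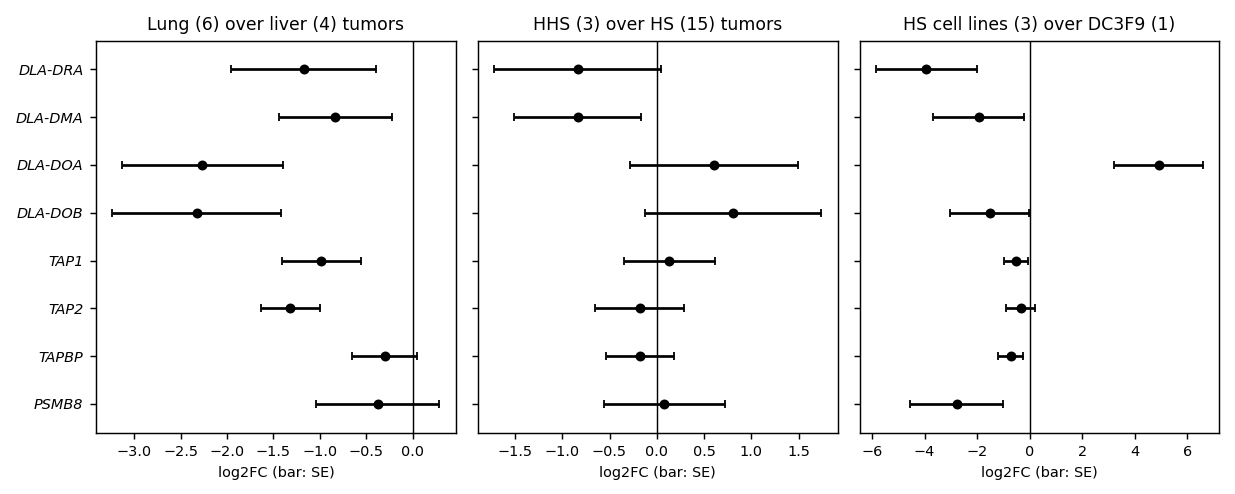
log2FC of each gene (points, with bars of 1 SE) for lung over liver tumors, HHS over HS tumors and HS cell lines over DC3F9. All 8 values are below 0 for lung over liver, the HHS values lie on both sides of 0, and *DLA-DRA* and *PSMB8* are the lowest in the lines, where *DLA-DOA* rests on 1 count in DC3F9.

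Over the 18 tumors the genes of each pair went together. Pearson's r of log2 CPM was computed for 28 pairs of the 8 genes and for each gene with *IFNG* and *IRF1*, 44 relations in all. Permutation tests with 100000 resamples gave an adjusted p under 0.05 for 30 of them by Pearson's r and 24 by Spearman's rho. No such count was made for other gene pairs over the same tumors, so these counts cannot be called particular to these genes. The closest pair was *DLA-DRA* and *DLA-DMA*, with r = 0.96 and rho = 0.93 (permutation p = 1e-05, the smallest these resamples can give, adjusted p = 0.00022). Without the 2 tumors farthest from the *DLA-DRA* median r was 0.90. *DLA-DOA* and *DLA-DOB* had r = 0.89 and rho = 0.87 (permutation p = 2e-05, adjusted p = 0.00022), and r = 0.85 without 2 tumors. *TAP1* and *TAP2* had r = 0.84 and rho = 0.89 (permutation p = 2e-05 and 1e-05, adjusted p = 0.00022 and 0.000147), and r = 0.81 without 2 tumors.

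Relations across the pathways were looser. *DLA-DRA* had r = 0.79 with *TAP2* (rho 0.66, permutation p = 3e-05 and 0.00331, adjusted p = 0.000264 and 0.0104) and r = 0.51 with *PSMB8* (rho 0.22, permutation p = 0.0353 and 0.370, adjusted p = 0.0501). Without the 2 tumors farthest from its median these became 0.65 and 0.29, so the second rested on those tumors. *DLA-DOA* and *PSMB8* had the lowest r of the 28 pairs, 0.31 (rho 0.44, permutation p = 0.210 and 0.0693, adjusted p = 0.225).

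*IRF1*, a transcription factor gene of the interferon response, went most closely with *TAP1*, at r = 0.91 and rho = 0.87 (permutation p = 1e-05, adjusted p = 0.00022), and r = 0.84 without 2 tumors. With *DLA-DOB* it had r = 0.79 (rho 0.81, permutation p = 0.00015 and 9e-05, adjusted p = 0.000825), and r = 0.78 without 2 tumors. *IFNG*, which encodes interferon gamma, had r = 0.66 with *TAP1* (rho 0.73, permutation p = 0.00243 and 0.00086, adjusted p = 0.00668), but 0.21 with *DLA-DRA* and 0.11 with *DLA-DMA* (permutation p = 0.395 and 0.665, rho 0.30 and 0.19). *IFNG* itself ran from 1 count in HS14 to 14.8 CPM in HS50, so its low values carry a large counting error.

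How much rested on low tumors and on sites was checked. Leaving out HS53 left 17 of the 44 relations with an adjusted p under 0.05, centring each tumor on its site left 17 (over 17 tumors), and the 15 HS tumors alone gave 13. 11 relations passed in the full set and in every one of the 4 alternatives. They were *DLA-DRA* with *DLA-DMA*, *TAP2* with each of *DLA-DRA*, *DLA-DMA*, *DLA-DOB* and *TAP1*, *TAP1* with *DLA-DOB* and *TAPBP*, *DLA-DOA* with *DLA-DOB*, *TAP1* with *IFNG*, and *IRF1* with *TAP1* and *DLA-DOB*. No relation of *PSMB8* was among them.

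**Figure D5:**
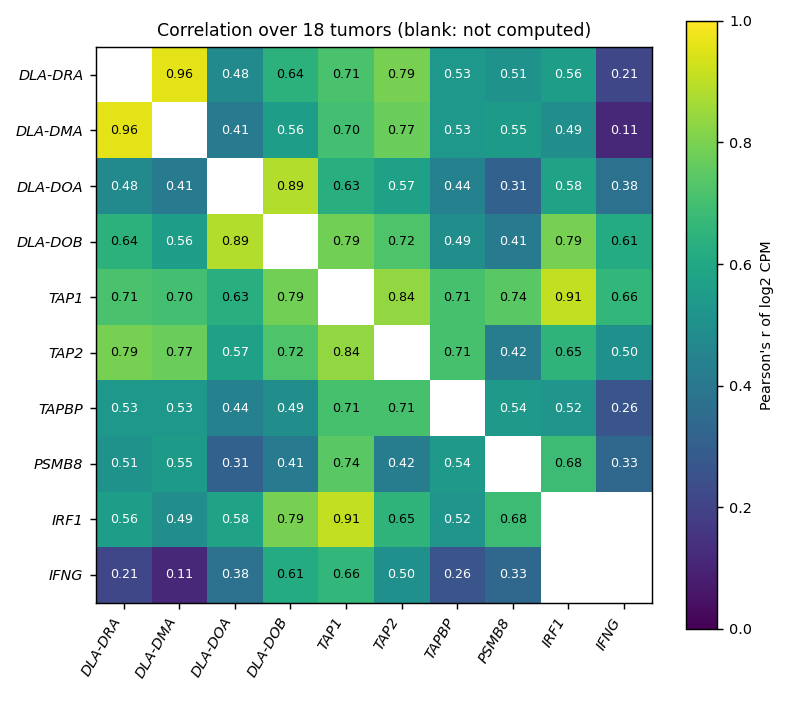
Pearson's r of log2 CPM over 18 tumors for each pair of the 8 genes and for each gene with *IRF1* and *IFNG*, printed in the cells and shown by color. The highest values are *DLA-DRA* with *DLA-DMA* (0.96), *TAP1* with *IRF1* (0.91) and *DLA-DOA* with *DLA-DOB* (0.89), and *IFNG* has its lowest values with *DLA-DMA* (0.11) and *DLA-DRA* (0.21).

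Of 620 other named genes with a mean of at least 3 log2 CPM in tumors, those most like each of the 8 were found as a description. Only 1126 of 32704 identifiers carried a name. The named genes in the lists used here lay mostly on few chromosomes, chromosome 12 among them. Genes without a name may be more alike and were not ranked. The 3 most like *DLA-DRA* were *DLA-DQA1* (r = 0.96) and the counterparts of *HLA-DQB2* (0.90) and *HLA-DRB1* (0.81), and the same 3 led for *DLA-DMA* (0.91, 0.91 and 0.83). For *TAP1* they were *IRF1* (0.91), *ETV7* (0.84) and *SLC25A48* (0.83), and for *DLA-DOB* *CEP120* (0.82), *IRF1* (0.79) and *IRGM* (0.78). *DLA-DOA* had *ITPR3* (0.80), *CEP120* (0.72) and the lymphocyte receptor gene *IL2RB* (0.69), and *PSMB8* had *FGD2* (0.81), *DLA-64* (0.80) and *DEF6* (0.80). *TAP2* had *DLA-DQA1* (0.77), *RNF5* (0.76) and *TAF11* (0.74), and *TAPBP* had *PPIL1* (0.71), *PHF1* (0.65) and *ATF6B* (0.64). All points share the same 18 libraries and their depth.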

How the data were processed

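Per the labels and the study's methods, the authors depleted ribosomal and globin RNA from the tissue and blood samples, used cutadapt 3.7 for trimming, STAR 2.7.10a for alignment to CanFam3.1 and HTSeq 2.0.0 for counting, and deposited raw counts per gene without normalization. The annotation release and strand setting are not given in the sources used here, so overlapping genes may share reads. The authors' fold changes, made with DESeq2, were not used.

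CPM was computed from the total counts on genes. log2FC, SE and p-values came from R 4.3.3 and edgeR 4.0.16 (TMM, filterByExpr, quasi-likelihood test, Benjamini-Hochberg over all genes tested). Correlations used log2 CPM with a prior count of 2, and Python 3.11.15 with numpy 2.4.6 and scipy 1.17.1. Alternatives were DESeq2 1.42.0, its size factors, no filter on low counts, a robust fit, and other sets of samples. p-values measure the spread between libraries. The labels do not say whether the lung, spleen and liver controls came from different dogs. Intervals and limits cover counting error only.

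The genes and lists were chosen with earlier results of these data known. Named genes were all paired members, every gene of the class I, class II and interferon lists, the called and extreme genes of the remaining lists, and the 3 most alike genes. Levels, marker sums and single libraries were described as they stood. Within the tissue table and within the culture table, every pair of libraries differed by far more than sampling noise (smallest chi-square per gene 721). On simulated counts for lines against DC3F9 at a dispersion of 0.1 (17291 genes), edgeR recovered 100 of 100 genes changed by 4 in log2FC. It recovered 56 of 100 genes changed by 2. At a dispersion of 0.4 (17373 genes) it recovered 23 of 100 and 2 of 100. In the measured counts the SE of the antigen processing genes ran from 0.45 (*TAP1*) to 1.92 (*DLA-DRA*). The dispersions of these genes were not compared with the simulated ones, so the recovery does not give the power for them.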

Additional observations from a re-analysis of the deposited data

How the results depend on the processing

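Of the 8 genes, 0 were called in tumors against controls, except under DESeq2, which called 1 (*DLA-DOA*), and at an adjusted p under 0.05, which called 2 (*DLA-DOA* and *DLA-DOB*) and 17.8% of all genes. All other alternatives gave 0, each control left out in turn included. In HHS against HS, lung against liver and lines against DC3F9 the number called was 0 under every alternative run. Over the alternatives the log2FC of *DLA-DOA* in tumors against controls was -3.33 to -2.62 (adjusted p 8.17e-05 to 0.0167) and that of *DLA-DOB* -2.96 to -2.22 (adjusted p 0.0016 to 0.170). The relations over tumors with an adjusted p under 0.05 numbered 30 as reported, 13 in HS tumors only, 17 after centring on the site, and 17 without HS53, which was left out after seeing the data. In HHS against HS the gene paired with *HLA-C* turned from -1.22 to 2.95 with lung and liver tumors only, and *DLA88*, at 0.03, ran from -4.00 to 0.59 over the fits without 1 HHS tumor, lowest without HS46. The causes were not tested. No paired analysis was possible because the replicate numbers follow accession order and pair no samples across groups. Depth limited *DLA-DOA* in DC3F9 (1 count), *DLA-DOB* in PJ (2 counts), and the low values of *IFNG* and the *HLA-DPB1* counterpart. The single DC3F9 library and the 3 HHS tumors limit those comparisons.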

Other observations

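Some libraries held the class I steps of the pathway at different balances. *PSMB8* counts per *TAP1* count were 0.280 to 2.51 over the 18 tumors, 0.524 to 0.942 over the 5 controls, 0.586 in DC3F9, 0.301 in BD, 0.0268 in PJ and 0.0112 in OD. The lung tumor HS27 was highest, with 657 CPM of *PSMB8* beside 261 of *TAP1*, and HS53 was the lowest tumor. *TAP1* counts per *TAP2* count, which encode the chains of the transporter, were 1.67 to 5.28 in tumors (median 3.03), 1.31 to 2.36 in controls and 1.15 to 1.59 in the lines. *DLA-DRA* counts per *TAP1* count were 2.22 in HS29 and 52.1 in the thorax tumor HS14 at the ends of the tumors, 11.5 to 27.7 in controls, 17.7 in DC3F9, and 4.05, 0.326 and 0.0889 in BD, OD and PJ. HS14 also had the fewest *DLA-DOB* counts per 1000 *DLA-DRA* counts (0.0823), at 11783 CPM of *DLA-DRA*. These ratios were chosen after the levels had been seen, are not corrected for gene length and carry no test.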
